A study of Mus musculus with 14 samples.

Results

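The 10 genes described here encode RNA-binding proteins that shape alternative splicing in neurons: Msi1, Msi2, Srrm3, Srrm4, Ptbp1, Ptbp2, Nova1, Nova2, Rbfox1 and Rbfox2. They were selected by name, and all 10 were found among the 24421 genes of the RNA-seq count table. Their surroundings were followed in the ATAC-seq count table, which lists 53204 elements of 200 bp. Of these elements, 117 lay within 50 kb of the 10 genes.

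Photoreceptors splice many transcripts in a pattern of their own, with some exons and very short microexons that other neurons skip. The Musashi proteins (Msi1 and Msi2) and the serine/arginine repetitive matrix proteins (Srrm3 and Srrm4) promote inclusion of such exons, whereas the polypyrimidine tract-binding protein Ptbp1 represses neural exons in progenitors and non-neural cells and is largely replaced by its paralog Ptbp2 in differentiating neurons. Nova and Rbfox proteins bind short RNA elements in and beside exons and direct the exon choice of many mature neurons.

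All libraries came from C57BL/6 mice 8 weeks old whose retinas were dissociated and sorted for green fluorescence. Rods carried Nrl-eGFP, a reporter under the promoter of the rod determinant Nrl. The Nrl-/- photoreceptors carried the same reporter together with a knockout of Nrl (Nrl-eGFP;NrlKO), so that they are cells of the rod lineage turned to a cone-like fate, and the labels call them blue cone photoreceptors. Green cones carried Opn1mw-GFP, a reporter for cells that express the medium-wavelength opsin, and were sorted either a single time or in a double sort. RNA-seq covered 3 libraries of rods and 3 of Nrl-/- photoreceptors, and ATAC-seq, in which a transposase inserts adapters into accessible DNA, covered 2 libraries for each of 4 populations, namely rods, Nrl-/- photoreceptors and green cones of either sort. No RNA was sequenced from green cones. Mice were male unless listed otherwise, the sorts for double-sorted green cones included females, and each sort pooled retinas, so p-values measure only the spread between these libraries.

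In the rod libraries Nrl itself reached 604, 853 and 749 CPM (counts per 1000000), against 33.9, 39.2 and 24.4 in those of Nrl-/- photoreceptors. Summed levels of 7 rod markers were 153078 to 209010 CPM in rods against 8927 to 13248 in Nrl-/- photoreceptors, and those of 8 cone markers were 553 to 562 CPM against 77525 to 88283. Among markers of other retinal cells, the 9 bipolar genes summed to 81.4 to 110 CPM in rods against 1377 to 1591 in Nrl-/- photoreceptors, where Cabp5 alone gave 1390 CPM. The 8 amacrine genes summed to 107 to 128 CPM and 68.4 to 82.2 CPM, with Slc32a1 and Chat at 0 in all 6 libraries, and the 8 ganglion cell genes summed to 2.14 to 3.58 CPM and 7.11 to 10.4 CPM, with Pou4f2 and Thy1 at 0. Müller glia genes (9) summed to 93.6 to 153 CPM and 706 to 877 CPM, where Clu (59.4 against 668 CPM on average) and Apoe (15.2 against 92.0) carried the rise while Rlbp1, Glul, Slc1a3 and Aqp4 had lower means in Nrl-/- photoreceptors. The microglia genes (7) to 2.60 to 4.03 CPM and 19.8 to 43.6 CPM. Assigned RNA-seq reads numbered 18376770 to 26312895 per library, with 47.3% to 49.2% of the reads unassigned in rods and 41.3% to 46.4% in Nrl-/- photoreceptors, and RNA integrity was listed as lower for rods. ATAC-seq reads in elements numbered 5170146 and 5770075 in rods, 2402513 and 4318961 in Nrl-/- photoreceptors, and 1263753 and 1062403 in the double-sorted libraries of green cones. The part of these differences in the results below was not tested.

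The sequences that carried the clearest differences are given first, from GRCm38.p6 (mm10) on the strand of each gene. They are the element with the lowest adjusted p near each of 6 genes, and 1 of the 2 promoter elements of Msi1, whose RNA changed. RNA of Msi2, Nova1 and Nova2 was called too. The other promoter element of Msi1 and those of Msi2 are not printed. Bases in exons were left out. Capitals mark matches, on either strand, to 6 sets of letters: TAATCC (K50 homeodomain), TAATTA (Q50 homeodomain), TGCTGA (MAF), TGANTCA (bZIP), CATATG (bHLH) and AGGTCA (nuclear receptor).
Msi2 intron, chr11:88404339-88404538, minus strand: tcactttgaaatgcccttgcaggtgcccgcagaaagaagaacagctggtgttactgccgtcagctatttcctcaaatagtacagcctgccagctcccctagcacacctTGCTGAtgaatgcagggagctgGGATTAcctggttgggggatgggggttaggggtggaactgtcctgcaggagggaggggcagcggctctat
Srrm3 upstream, chr5:135795099-135795298, plus strand: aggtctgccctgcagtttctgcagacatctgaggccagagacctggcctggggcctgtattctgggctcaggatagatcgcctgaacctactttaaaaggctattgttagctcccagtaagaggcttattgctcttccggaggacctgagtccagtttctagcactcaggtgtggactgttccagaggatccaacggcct
Nova1 upstream, chr12:46819481-46819641, minus strand: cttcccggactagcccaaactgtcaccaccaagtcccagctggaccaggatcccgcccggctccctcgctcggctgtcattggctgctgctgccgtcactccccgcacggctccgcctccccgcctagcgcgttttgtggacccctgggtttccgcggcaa
Srrm4 intron, chr5:116563866-116564065, minus strand: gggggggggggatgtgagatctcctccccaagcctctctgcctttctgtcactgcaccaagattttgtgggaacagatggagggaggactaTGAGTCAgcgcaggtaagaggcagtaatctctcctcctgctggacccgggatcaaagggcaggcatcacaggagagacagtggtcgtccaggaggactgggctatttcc
Rbfox1 intron, chr16:6331487-6331686, plus strand: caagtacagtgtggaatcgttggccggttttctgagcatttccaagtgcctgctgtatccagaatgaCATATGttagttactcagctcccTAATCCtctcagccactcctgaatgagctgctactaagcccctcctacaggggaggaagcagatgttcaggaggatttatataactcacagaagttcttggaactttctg
Rbfox2 intron, chr15:77301189-77301388, minus strand: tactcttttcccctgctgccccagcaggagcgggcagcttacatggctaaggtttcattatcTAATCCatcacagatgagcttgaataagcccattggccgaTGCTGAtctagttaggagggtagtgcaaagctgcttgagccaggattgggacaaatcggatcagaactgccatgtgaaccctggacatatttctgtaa
Msi1 promoter, chr5:115436450-115436627, plus strand: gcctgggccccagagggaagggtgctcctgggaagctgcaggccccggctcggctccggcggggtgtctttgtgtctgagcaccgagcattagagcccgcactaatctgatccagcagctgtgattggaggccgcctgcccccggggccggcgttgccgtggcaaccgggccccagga
The Msi2 element, which was open in rods, held TAATCC and TGCTGA close together. The Rbfox2 element, which was open in cones, held the same 2 sets of letters. The Srrm4 element held TGANTCA, the Rbfox1 element held TAATCC and CATATG, and the Srrm3, Nova1 and Msi1 sequences held none of the 6. Over the whole table, TAATCC occurred in 21.1% of elements, TGCTGA in 15.9%, TGANTCA in 6.28%, CATATG in 2.50%, TAATTA in 4.71% and AGGTCA in 14.9%. Near the 10 genes, TAATCC occurred in 35 of 117 elements (29.9%), among them 3 of the 5 called higher in rods and 7 of the 18 called higher in cones. These counts are descriptions and were not tested.

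The RNA comparison asked how rods, which depend on Nrl, differ from photoreceptors that lack it. The paralogs split: Msi2 rose in rods and Msi1 rose in Nrl-/- photoreceptors, as did Nova1 and, at far lower levels, Nova2. Ptbp2 was level, Ptbp1, Srrm3 and Srrm4 moved by about 2-fold or less, and Rbfox1 and Rbfox2 were barely detected. After the filter on low counts, 8 members were tested with the quasi-likelihood model of edgeR, which asked for a log2 fold change beyond 1 (adjusted p under 0.05). Of these, 1 was called higher in rods, where 6.88% of all 12327 tested genes were, and 3 were called higher in Nrl-/- photoreceptors, where 13.3% were. Against a difference of 0, 3 members were called higher in rods (29.5% of all genes) and 4 in Nrl-/- photoreceptors (31.4%). The libraries of the 2 groups did not overlap for 7 of the 8 members, which held for 67.1% of all genes. The median log2 fold change of the 8, rods over Nrl-/- photoreceptors, was −0.33, against 0.0080 over all tested genes. These are bulk samples, in which fewer cells that express a gene and less RNA per cell cannot be told apart.

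**Figure D1:**
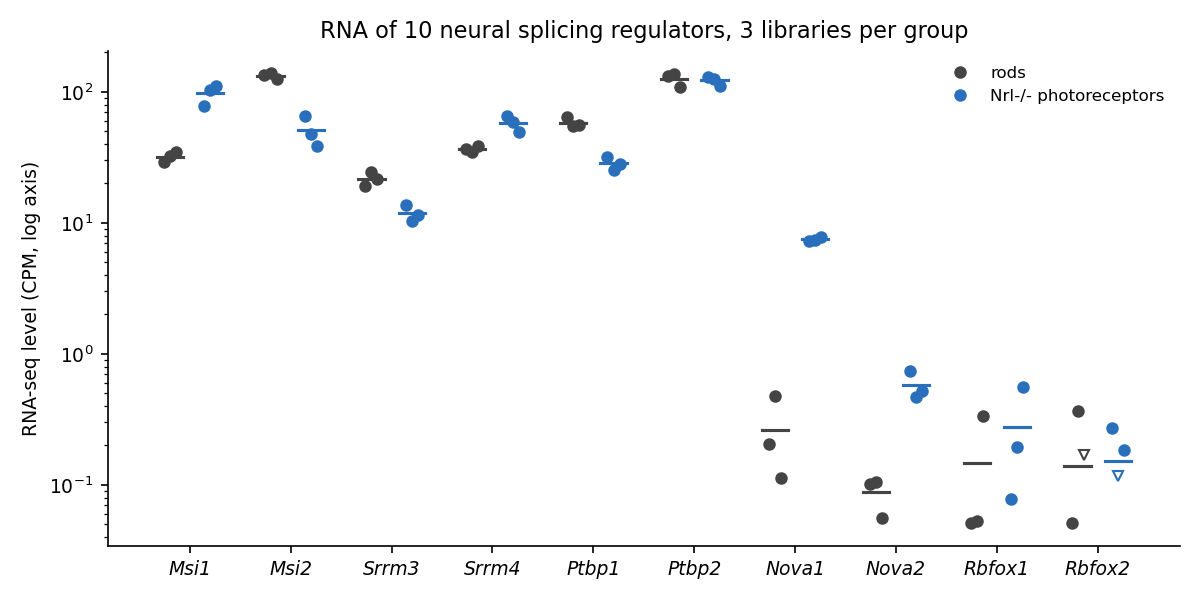
RNA-seq levels of the 10 genes on a log axis in CPM, with 1 point per library (3 rod libraries in grey, 3 Nrl-/- libraries in blue) and a bar at each group mean. Open triangles stand for libraries without a count and are drawn at the limit of 3 counts. Nova1 spans 0.112 to 0.474 CPM in rods and 7.29 to 7.81 in Nrl-/- photoreceptors, whereas the points of Ptbp2 overlap.

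Msi1, which in neural progenitors regulates translation and in photoreceptors promotes exon inclusion, measured 29.0, 32.2 and 34.9 CPM across the rod libraries and 78.0, 104 and 111 across those of Nrl-/- photoreceptors. All 3 rod libraries lay below all 3 others. The mean in Nrl-/- photoreceptors was 3.05-fold that in rods (log2 fold change, rods over Nrl-/-, −1.63, SE 0.15, adjusted p = 0.00078 with edgeR). Msi2, its closest relative, measured 134, 139 and 126 CPM across the rod libraries and 65.9, 47.9 and 38.4 across those of Nrl-/- photoreceptors. Here the rod libraries lay above the others, by 2.62-fold in the means (log2 fold change 1.36, SE 0.17, adjusted p = 0.037 with edgeR). This call lay near the threshold: the adjusted p from edgeR was 0.077, 0.082 and 0.053 without rod libraries 1, 2 and 3, 0.11 and 0.14 without Nrl-/- libraries 2 and 3, and DESeq2 gave 0.36. Per kb of exon, Msi1 stood at 0.403 to 0.518 of Msi2 in rods and at 2.2 to 5.39 of Msi2 in Nrl-/- photoreceptors, so that the order of the paralogs differed between the groups in every library.

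Srrm4, a neuron-restricted activator of microexons, measured 36.6, 35.0 and 38.6 CPM across the rod libraries and 65.3, 58.4 and 49.3 across those of Nrl-/- photoreceptors. The groups did not overlap, and the mean was 1.57-fold higher in Nrl-/- photoreceptors (log2 fold change −0.67, SE 0.13). Srrm3, which acts on microexons in the same way, measured 19.2, 24.6 and 21.5 CPM across the rod libraries and 13.8, 10.3 and 11.5 across those of Nrl-/- photoreceptors. It was 1.84-fold higher in rods (log2 fold change 0.85, SE 0.17), again without overlap. Neither gene passed the threshold of 1 (adjusted p = 1.0 for each with edgeR), and both passed the one against 0 (adjusted p = 0.00094 for Srrm4 and 0.0010 for Srrm3 with edgeR). Srrm4 shares exonic sequence with the antisense transcript Srrm4os, and the library kit does not mark the strand, so reads of these genes cannot be told apart. Per kb of exon, Srrm4 stood at 0.749 to 1.00 of Srrm3 in rods and at 2.26 to 2.99 of it in Nrl-/- photoreceptors.

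Ptbp1, the repressor of neural exons, measured 64.0, 55.3 and 55.6 CPM across the rod libraries and 31.9, 25.3 and 28.2 across those of Nrl-/- photoreceptors. Every rod library was above every Nrl-/- library, and the means differed by 2.05-fold (log2 fold change 1.01, SE 0.13, edgeR adjusted p = 0.71 against a log2 fold change of 1 and 4.5e-05 against 0). Exons of Ptbp1 overlap the antisense genes E130317F20Rik and Plppr3, whose reads cannot be told apart from its own. Ptbp2, the neuronal paralog, measured 131, 137 and 109 CPM across the rod libraries and 131, 126 and 111 across those of Nrl-/- photoreceptors. The groups overlapped, and the log2 fold change of 0.01 (SE 0.12, edgeR adjusted p = 0.93 against 0) was smaller than its error. Per kb of exon, Ptbp1 stood at 0.438 to 0.550 of Ptbp2 in rods and at 0.217 to 0.274 of it in Nrl-/- photoreceptors.

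Nova1, a brain protein known as a target of autoantibodies in a paraneoplastic motor disorder, had 4, 9 and 2 counts in rods and 188, 190 and 210 counts in Nrl-/- photoreceptors. In CPM these were 0.204, 0.474 and 0.112 against 7.29, 7.40 and 7.81. No library of one group came near the other, and the ratio of the group totals was 28.2 (exact 95% counting interval 17.0 to 50.8). The log2 fold change was −4.82 (SE 0.40, adjusted p = 3.2e-06 with edgeR), and the call held in every alternative fitted, with log2 fold changes from −5.51 without rod library 2 to −4.47 without rod library 3. Nova2, its paralog of the cortex, had 2, 2 and 1 counts in rods and 19, 12 and 14 counts in Nrl-/- photoreceptors. The groups did not overlap, with a ratio of totals of 6.49 (2.58 to 20.9) and a log2 fold change of −2.65 (SE 0.65, adjusted p = 0.028 with edgeR). The call on Nova2 was fragile: the edgeR adjusted p was 0.11, 0.099 and 0.15 without rod libraries 1, 2 and 3 and 0.054 without Nrl-/- library 2, Nova2 fell below the filter without Nrl-/- library 1 or 3, and DESeq2 gave 0.51. Exons of Nova2 overlap the antisense gene Gm38952. Of the amacrine and ganglion cell markers, all but Slc6a9 and Pou4f1 had means below 2 CPM in both groups (Gad1 at 0.07 CPM in rods and 0.10 in Nrl-/- photoreceptors). Pou4f1 rose from 0.086 CPM in rods to 6.58 in Nrl-/- photoreceptors (adjusted p = 2.8e-06 with edgeR) and carried most of the ganglion cell sum there. The 5 horizontal cell genes summed to 1.47 to 2.97 CPM in rods and 2.80 to 4.54 in Nrl-/- photoreceptors. Whether other neurons contributed to the Nova1 and Nova2 counts was not tested.

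Rbfox1, which binds UGCAUG beside neuronal exons, had 1, 1 and 6 counts in rods and 2, 5 and 15 counts in Nrl-/- photoreceptors. Rbfox2, its more widely expressed paralog, had 1, 7 and 0 counts in rods and 7, 0 and 5 counts in Nrl-/- photoreceptors. The groups overlapped for both genes, both fell below the filter and were not tested, and their counts were close to the limit of 3 counts per library, which corresponds to 0.153 to 0.168 CPM in a rod library and to 0.112 to 0.117 in an Nrl-/- one.

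Per kb of annotated exon, Ptbp2 stood highest in rods at 37.4 ± 4.34 CPM (SD, n = 3), followed by Msi2 at 19.4 ± 0.963, Ptbp1 at 18.8 ± 1.60, Msi1 at 8.71 ± 0.800, Srrm3 at 5.54 ± 0.689 and Srrm4 at 4.91 ± 0.241. Msi2 and Ptbp1, and likewise Srrm3 and Srrm4, differed by less than their spread between libraries. In Nrl-/- photoreceptors Ptbp2 was again highest at 36.5 ± 2.97, and the next were Msi1 at 26.6 ± 4.75, Ptbp1 at 9.15 ± 1.07, Srrm4 at 7.71 ± 1.07, Msi2 at 7.40 ± 2.03, Srrm3 at 3.01 ± 0.452 and Nova1 at 1.84 ± 0.0678. Srrm4 and Msi2 could not be separated here. The other genes lay below 0.1 CPM per kb in the groups not given. These levels divide by all annotated exons of a gene, used or not, and gene counts do not show which exons were included.

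Other splicing proteins gave the setting for these levels. Among 37 other neural RNA-binding proteins, 30 were tested, of which 3 were called higher in rods (6.88% of all genes were) and 4 in Nrl-/- photoreceptors (13.3% of all), with a median log2 fold change of −0.17. Mbnl1, the muscleblind protein that controls developmental exon switches, rose in rods from 99.3 ± 16.3 CPM (SD, n = 3) in Nrl-/- photoreceptors to 1614 ± 256 CPM (log2 fold change 4.0, SE 0.18, adjusted p = 1.1e-08 with edgeR). Celf3 was higher in Nrl-/- photoreceptors, at 39.9 ± 15.6 CPM against 1.43 ± 0.179 CPM (log2 fold change −4.82, SE 0.31, adjusted p = 3.4e-07 with edgeR), as was Raver2, which encodes a partner of Ptbp proteins, at 10.0 ± 0.435 CPM against 0.705 ± 0.225 CPM. Rbm24 had no count in any rod library and 0.769 ± 0.218 CPM in Nrl-/- photoreceptors. Among 22 SR proteins, Tra2 proteins and their kinases, none was called higher in rods by edgeR or DESeq2 (1 at an unadjusted p under 0.05), and 2 were called higher in Nrl-/- photoreceptors: Srpk3, a kinase of SR proteins, at 49.1 ± 8.70 CPM against 0.669 ± 0.148 CPM, and Srsf12 at 27.8 ± 3.14 CPM against 0.701 ± 0.363 CPM. Against a difference of 0, 18 of the 22 were called higher in rods, where 29.5% of all genes were, and the list median was 0.57. Of 20 hnRNP proteins, Hnrnpu alone was called against a log2 fold change of 1. It stood at 924 ± 155 CPM in rods against 375 ± 12.1 in Nrl-/- photoreceptors (adjusted p = 0.042 with edgeR, not called by DESeq2). None was called higher in Nrl-/- photoreceptors by either tool, or at an unadjusted p under 0.05 in the same edgeR test. Against a difference of 0, 5 were called higher in rods (29.5% of all genes) and 2 in Nrl-/- photoreceptors (31.4% of all).

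The ATAC-seq comparison asked where the chromatin near these genes was open in rods and where in cones, with Nrl-/- photoreceptors and double-sorted green cones taken as a single group of 4 libraries. Elements near Nova1, Srrm4, Rbfox1 and Rbfox2, and 2 in Msi2, were called more open in cones, some elements inside Msi2 and 1 each near Srrm3 and Msi1 were more open in rods, and those near Ptbp1, Ptbp2 and Nova2 gave no call. When edgeR asked for a log2 fold change beyond 1 (adjusted p under 0.1), 5 of the 117 elements were called higher in rods, where 3.98% of all 51563 tested elements were, and 18 were called higher in cones, where 18.1% were. Against a difference of 0, edgeR called 29 higher in rods (18.3% of all elements) and 27 higher in cones (27.8%). As a group, the 117 elements were therefore called about as often as elements elsewhere. The median log2 fold change, rods over cones, was 0.35 near these genes and −0.13 over all elements. Of the 117 elements, 66 lay inside a gene and 51 outside, 10 lay at a promoter (from 1000 bp upstream to 100 bp downstream of a start site), and only 38 had the member as the nearest gene by start site. ATAC-seq counts were even in 62.6% to 76.6% of elements with 3 to 499 counts, as they would be if both reads of a pair were counted, in which case the counting intervals below are too narrow.

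Leaving out 1 library at a time changed many of these calls. Where 1 library of a group was left, it was assumed to vary like those of the other group. Without rod library 1, cones had 9 elements called and rods 1. Without rod library 2, these numbers were 10 and 1. In all 6 such fits, 8 of the 18 elements called higher in cones were called again, 3 of them near Nova1, 1 near Srrm4, 1 in Rbfox1 and 3 in introns of Rbfox2, and 1 of the 5 called higher in rods, which lies in Msi2. Each of those 9 elements is described below with its values. The 2 groups of libraries did not overlap for them, which adds no separate support, since these same values chose the elements. The share of all elements without overlap was not counted.

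**Figure D2:**
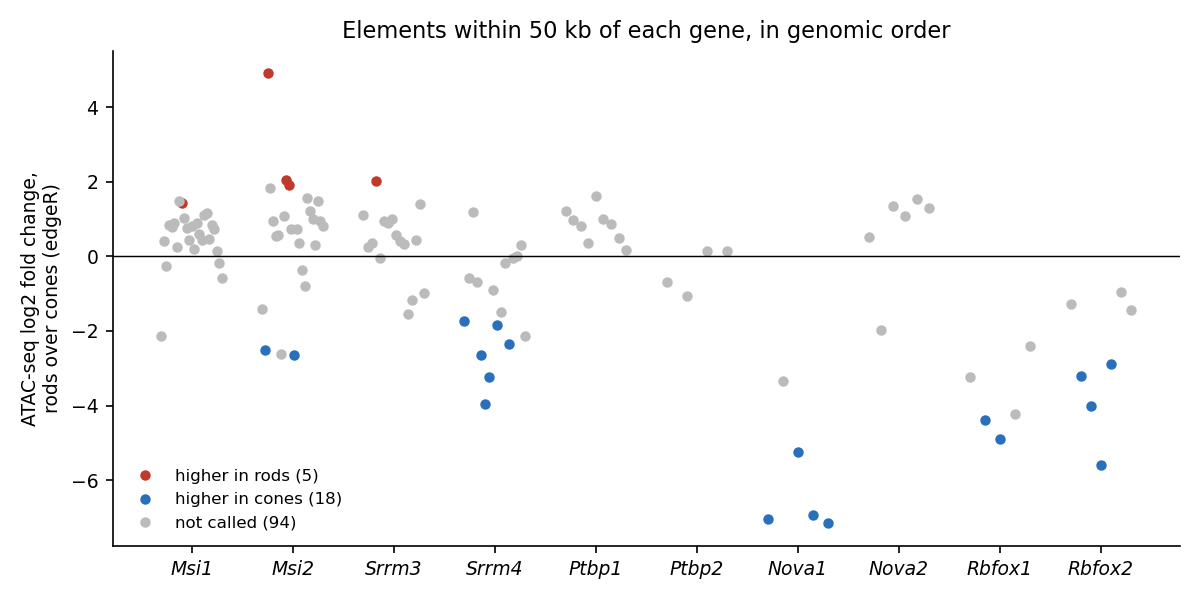
ATAC-seq log2 fold change of each of the 117 elements, rods over cones (edgeR, on the vertical axis), ordered by position within each of the 10 genes. Red points are the 5 elements called higher in rods, blue points the 18 called higher in cones and grey points the 94 not called. Points of Nova1, Rbfox1 and Rbfox2 all lie below 0, and the highest point belongs to Msi2.

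Near Nova1, 4 of 5 elements were called higher in cones (80.0% of its elements, against 18.1% of all). Those centred 0.432, 0.774 and 1.19 kb upstream of the start site lie side by side, so the 4 are not separate sites and this share overstates them. The strongest, chr12:46819442-46819641, centred 0.774 kb upstream of the start site, was measured at 0.625 and 0.188 CPM in the rod libraries, 33.5 and 29.5 in Nrl-/- photoreceptors, 83.9 and 75.5 in double-sorted green cones and 48.1 and 59.3 CPM in single-sorted green cones. Rods were thus near 0, and every cone library was far above them. The log2 fold change was −6.95 (SE 0.74, adjusted p = 0.00029 with edgeR), and the counts, 4 in rods, gave ratios to rods of 202 (exact 95% counting interval 77.7 to 750) for green cones and 78.2 (30.1 to 290) for Nrl-/- photoreceptors. Green cones stood above Nrl-/- photoreceptors by a log2 fold change of 1.35, which did not pass the test against 1 (adjusted p = 0.60 with edgeR) but did pass against 0 (adjusted p = 0.060 with edgeR).

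The neighbouring element chr12:46819100-46819299 had 0 and 0.753 CPM in the rod libraries, 6.62 and 10.4 in Nrl-/- photoreceptors and 22.5 and 29.6 in green cones (log2 fold change −5.25, SE 0.93, adjusted p = 0.0044 with edgeR). The other called elements of Nova1 had no count in either rod library, so they passed the filter on low counts through cone libraries alone. One, chr12:46674508-46674707, lies 144 kb downstream of the start site and had 3.31 and 3.18 CPM in Nrl-/- photoreceptors against 9.33 and 5.39 in green cones, at least 5.46-fold and 12.4-fold above the limit of 3 counts per rod library (adjusted p = 0.0099 with edgeR). The other, chr12:46819853-46820052, had 1.66 and 2.04 CPM and 10.9 and 9.0 CPM, at least 3.11-fold and 16.7-fold above it (adjusted p = 0.019 with edgeR, and 0.10 without rod library 1 or 2, while it fell below the filter without either green cone library). Over all 5 elements, summed levels were 1.04 and 0.941 CPM in the rod libraries, 48.4 and 46.5 in Nrl-/- photoreceptors and 128 and 123 in double-sorted green cones. In RNA, Nova1 was likewise close to 0 in rods.

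**Figure D3:**
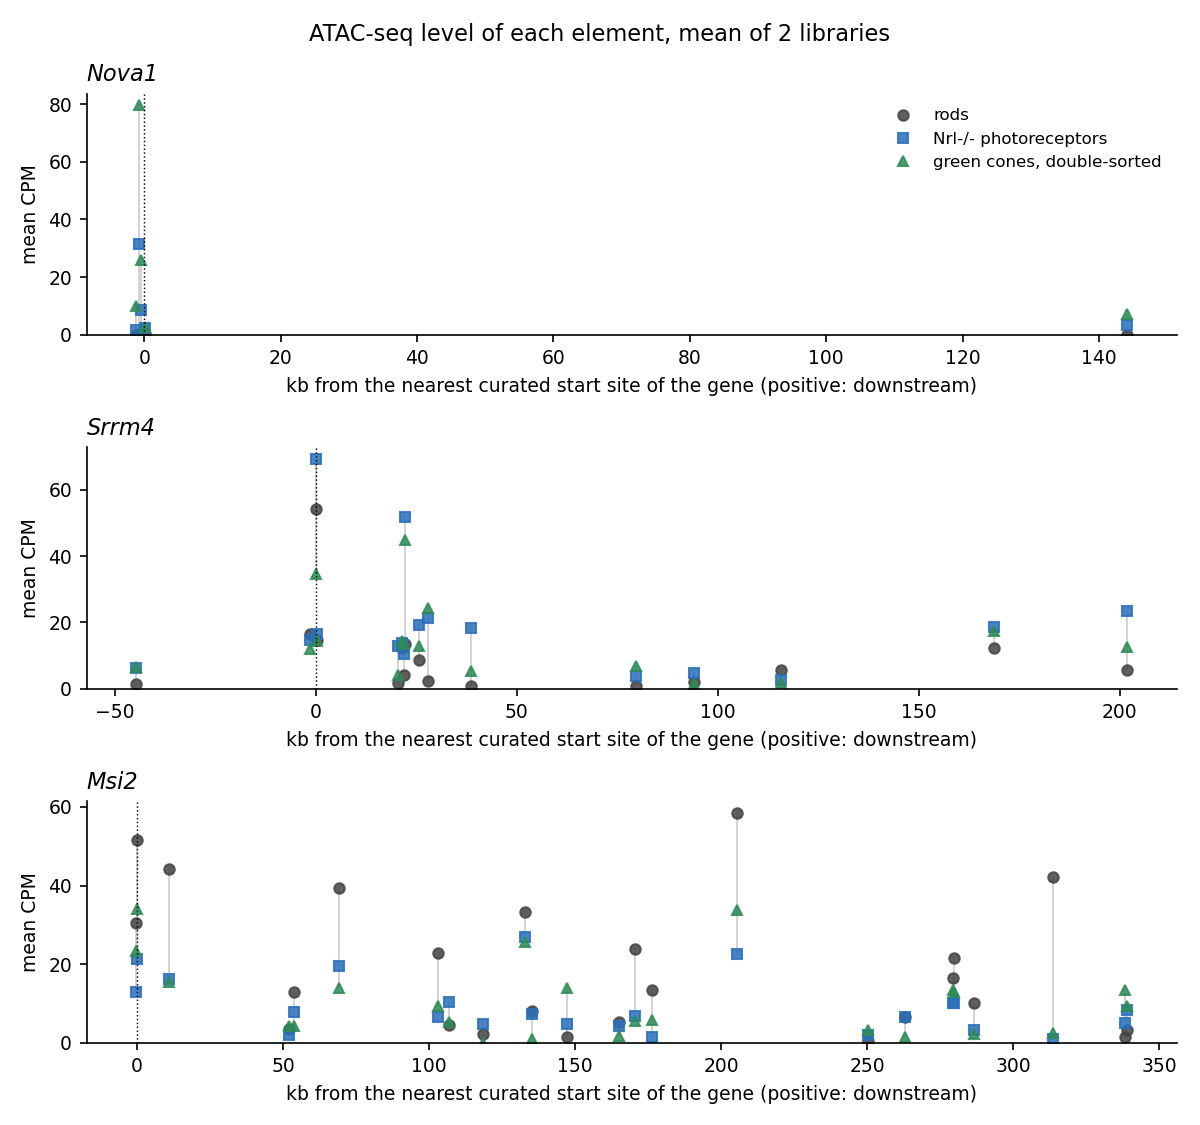
Mean ATAC-seq level (CPM, 2 libraries per group, linear axes) of every element near Nova1, Srrm4 and Msi2, against distance in kb from the nearest curated start site of the gene, with rods as grey circles, Nrl-/- photoreceptors as blue squares and double-sorted green cones as green triangles. At Nova1 the rod circles lie at the bottom of the panel, where the strongest element reaches 79.7 CPM in green cones. At Msi2 the element 314 kb downstream of the start site stands at 42.3 CPM in rods.

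Near Srrm4, 6 of 16 elements were called higher in cones (18.1% of all elements were) and none higher in rods (3.98% of all, with none of Srrm4 by DESeq2 and none at an unadjusted p under 0.05). The element with the lowest adjusted p, chr5:116563866-116564065 in an intron 27.9 kb downstream of the start site, was measured at 2.50 and 2.26 CPM in the rod libraries, 17.4 and 25.4 in Nrl-/- photoreceptors and 20.2 and 28.7 in green cones. It was 9.0-fold higher in Nrl-/- photoreceptors and 10.3-fold higher in green cones than in rods (log2 fold change, rods over cones, −3.24, SE 0.41, adjusted p = 0.0013 with edgeR). Its intronic neighbour chr5:116569664-116569863 was open in all groups, at 14.2 and 12.8 CPM in the rod libraries, 48.8 and 54.9 in Nrl-/- photoreceptors and 52.9 and 36.8 in green cones (log2 fold change −1.85, SE 0.27, adjusted p = 0.010 with edgeR, and 0.10 without rod library 2). The difference there was one of degree. The element chr5:116553205-116553404 was measured at 0 and 1.51 CPM in the rod libraries, 5.44 and 5.39 in green cones and 19.9 and 17.0 in Nrl-/- photoreceptors (adjusted p = 0.019 with edgeR, and 0.14 without rod library 1). For the other 3 called elements the adjusted p of edgeR was 0.068 to 0.079, and each lost its call without either rod library or Nrl-/- library 2 (0.11 to 0.34), as 2 of them did without Nrl-/- library 1 (0.15 and 0.16) and the third without green cone library 4 (0.11).

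The promoter element of Srrm4, chr5:116591793-116591992, did not follow its introns. It was measured at 54.8 and 53.5 CPM in the rod libraries, 69.5 and 69.0 in Nrl-/- photoreceptors, 28.0 and 41.3 in double-sorted and 41.5 and 38.8 in single-sorted green cones. Nrl-/- photoreceptors thus lay above rods and green cones below them, and the collapsed cone group gave a log2 fold change of 0.02 (SE 0.31, adjusted p = 1.0 with edgeR). Over all 16 elements, summed levels were 152 and 162 CPM in the rod libraries, 297 and 321 in Nrl-/- photoreceptors and 234 and 221 in green cones.

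Rbfox2 and Rbfox1 showed open elements in cones even though neither gene gave more than 15 counts in an RNA-seq library. Near Rbfox2, 4 of 7 elements were called higher in cones, against 18.1% of all elements, and 3 of the 4 lay in its introns. The strongest, chr15:77301189-77301388 in an intron 5.76 kb downstream of a start site, had 5.0 and 3.01 CPM in the rod libraries, 33.1 and 36.1 in Nrl-/- photoreceptors and 31.1 and 16.2 in green cones (log2 fold change −2.88, SE 0.43, adjusted p = 0.0034 with edgeR). All cone libraries lay above both rod libraries. The intronic element chr15:77220203-77220402 had 0 and 0.377 CPM in the rod libraries, 4.14 and 7.26 in Nrl-/- photoreceptors and 23.3 and 12.6 in green cones, and the 2 counts in rods gave a ratio of green cones to rods of 92.7 (exact 95% counting interval 24.2 to 790). At chr15:77174437-77174636 the values in CPM were 0.417 and 0.377 in rods, 7.45 and 4.54 in Nrl-/- photoreceptors and 9.33 and 7.19 in green cones (log2 fold change −4.01, SE 0.78, adjusted p = 0.0083 with edgeR). The last of the 4, chr15:77036976-77037175, lies 41.9 kb outside Rbfox2, within Mb, and had an adjusted p of 0.073 and lost its call without either rod library (0.20 and 0.32) or either green cone library (0.14 and 0.11, edgeR).

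In introns of Rbfox1, which spans 1527.688 kb, 2 of 5 elements were called higher in cones, against 18.1% of all. At chr16:6331487-6331686 the values in CPM were 0.417 and 0.753 in rods, 9.93 and 10.9 in Nrl-/- photoreceptors and 18.7 and 14.4 in green cones (log2 fold change −4.39, SE 0.60, adjusted p = 0.0013 with edgeR). Green cones and Nrl-/- photoreceptors differed there by a log2 fold change of 0.67 (adjusted p = 1.0 with edgeR). At chr16:6383925-6384124 the green cone libraries disagreed, with 18.7 and 0 CPM, while rods had 0.417 and 0 CPM and Nrl-/- photoreceptors 6.62 and 3.86 CPM (adjusted p = 0.047 with edgeR, and 0.12 and 0.26 without rod libraries 1 and 2). Summed levels over the 5 elements were 2.50 and 2.64 CPM in the rod libraries, 28.6 and 17.9 in Nrl-/- photoreceptors and 67.6 and 39.5 in green cones. No element of the table lay at a promoter of Rbfox1. The promoter element of Rbfox2 was measured at 6.04 and 4.90 CPM in the rod libraries, 13.2 and 17.0 in Nrl-/- photoreceptors, and 28.0 and 0 in green cones, and it was not called in the collapsed comparison (adjusted p = 0.42 with edgeR). Against Nrl-/- photoreceptors alone it was called higher in the latter (log2 fold change −1.50, adjusted p = 0.083 with edgeR), a call lost without Nrl-/- library 2 (0.35) or rod library 2 (0.25).

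Msi2 held the clearest element of rods. All but 1 of its 24 elements lay within the gene, which spans 379 kb. Of the 24, 3 were called higher in rods (3.98% of all elements were) and 2 higher in cones (18.1% of all). The calls in cones were thus a smaller share than over all elements. The intronic element chr11:88404339-88404538 was measured at 41.4 and 43.1 CPM in the rod libraries, 0.828 and 0.908 in Nrl-/- photoreceptors and 1.55 and 3.59 in double-sorted green cones. It was 48.7-fold higher in rods than in Nrl-/- photoreceptors and 16.4-fold higher than in green cones (log2 fold change, rods over cones, 4.91, SE 0.45, adjusted p = 0.00022 with edgeR). This element lies 314 kb from the nearest start site of Msi2 and is closer to that of Mir378b, 51.7 kb away. Single-sorted green cones, at 15.4 and 19.2 CPM there, lay between the rods and the double-sorted cones. At all 5 elements called higher in rods, both single-sorted libraries were above both double-sorted libraries, although these 5 were chosen in a contrast that included the double-sorted values. At chr11:88541882-88542081 the single-sorted libraries, with 11.2 and 16.4 CPM, lay within the range of the rods.

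The element chr11:88547609-88547808 was measured at 24.6 and 23.3 CPM in the rod libraries, 4.97 and 8.63 in Nrl-/- photoreceptors and 2.33 and 8.98 in green cones (adjusted p = 0.046 with edgeR, and 0.20 and 0.17 without rod libraries 1 and 2). At chr11:88541882-88542081 the values in CPM were 9.37 and 17.3 in rods, 0.828 and 2.27 in Nrl-/- photoreceptors and 6.22 and 5.39 in green cones (adjusted p = 0.095 with edgeR, 0.18 and 0.53 without rod libraries 1 and 2, and 0.17 and 0.21 without Nrl-/- libraries 1 and 2). The elements called higher in cones were chr11:88570994-88571193, at 1.25 and 1.51 CPM in the rod libraries, 3.31 and 6.36 in Nrl-/- photoreceptors and 11.7 and 16.2 in green cones, and chr11:88379988-88380187, at 1.46 and 1.51, 4.97 and 4.99, and 10.9 and 16.2 CPM. Both stood higher in green cones than in Nrl-/- photoreceptors in every library, and both lost their call without either rod library or without green cone library 4 (adjusted p of 0.11 to 0.26 with edgeR). The Msi2 promoter, chr11:88718152-88718351, was measured at 57.1 and 46.1 CPM in the rod libraries, 20.3 and 22.2 in Nrl-/- photoreceptors and 29.5 and 38.6 in green cones, with rods above all cone libraries but no call (log2 fold change 0.95, SE 0.28, adjusted p = 0.65 with edgeR). Against Nrl-/- photoreceptors alone, 7 of 23 tested Msi2 elements were called higher in rods (6.38% of all elements were) and none higher in Nrl-/- photoreceptors (21.0% of all, with none of Msi2 by DESeq2 and 2 at an unadjusted p under 0.05).

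Msi1 RNA was higher in Nrl-/- photoreceptors, whereas 19 of the 25 elements near the gene had a log2 fold change above 0 toward rods in that same contrast (median 0.43, against −0.073 over all elements). Against all cones, 21 of the 25 did (median 0.74, against −0.13 over all elements). The share of all elements above 0 was not counted. Summed levels were 788 and 805 CPM in the rod libraries, 589 and 514 in Nrl-/- photoreceptors and 250 and 493 in green cones. Only 5 of the 25 elements had Msi1 as the nearest gene, since several other genes lie close by and a predicted transcript model extends Msi1 upstream. Msi1 has 2 curated start sites, each with a promoter element. The more open one, chr5:115436450-115436649, was measured at 93.9 and 93.2 CPM in the rod libraries, 64.2 and 52.4 in Nrl-/- photoreceptors and 36.5 and 46.7 in green cones. Rods were above all cone libraries there, by less than the threshold (log2 fold change 0.89, SE 0.22, edgeR adjusted p = 0.78 against 1 and 0.010 against 0). At the other, chr5:115429446-115429645, which overlaps A930005G22Rik, the libraries overlapped. Its values in CPM were 17.7 and 20.3 in rods, 15.7 and 16.6 in Nrl-/- photoreceptors and 5.44 and 18.0 in green cones (log2 fold change 0.43, SE 0.40, edgeR adjusted p = 0.41 against 0). The element chr5:115402179-115402378 lies 27.4 kb upstream of the nearest curated start site of Msi1. Its values in CPM were 76.0 and 71.9 in the rod libraries, 34.4 and 29.1 in Nrl-/- photoreceptors and 15.5 and 29.6 in green cones. The only call against all cones was there (log2 fold change 1.43, SE 0.27, adjusted p = 0.097 with edgeR), where 3.98% of all elements were called higher in rods. It was lost without either rod library (adjusted p of 0.30 and 0.23), without Nrl-/- library 2 (0.14) or without green cone library 4 (0.10, edgeR). Against Nrl-/- photoreceptors alone, 1 element was called in the direction of the RNA: chr5:115319721-115319920, which lies 39.2 kb outside the gene, had 0.833 and 2.64 CPM in the rod libraries and 6.21 and 8.17 in Nrl-/- photoreceptors (log2 fold change −2.05, adjusted p = 0.041 with edgeR, and 0.28 without rod library 1 or without Nrl-/- library 2).

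**Figure D4:**
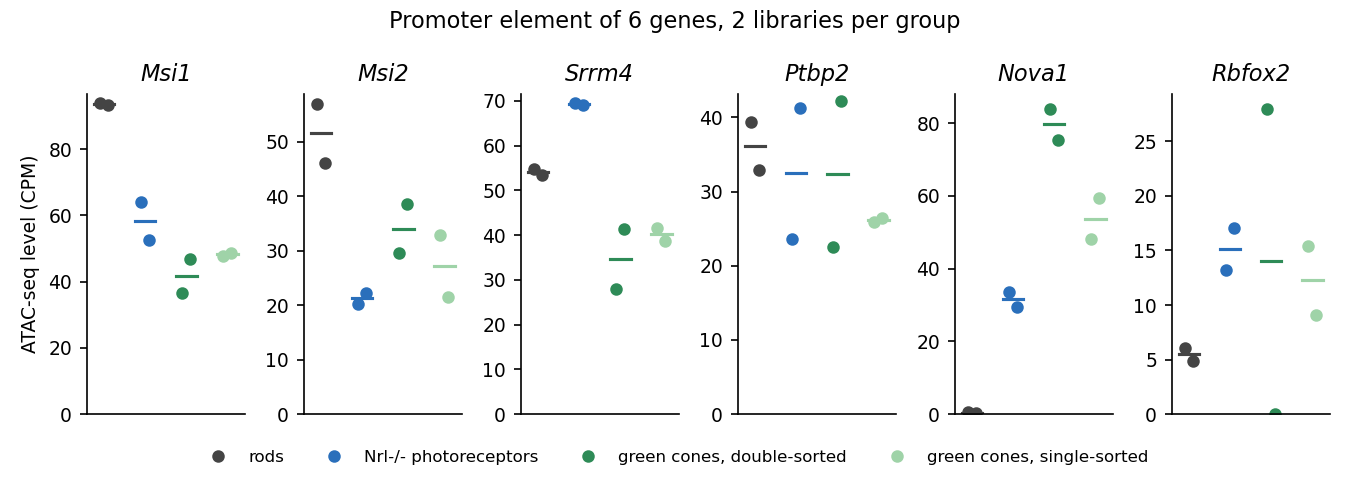
ATAC-seq level (CPM, linear axes from 0) of the most open promoter element of each of the 6 genes that had one, with 1 point per library, 2 libraries per group and a bar at each group mean. Rods lie above all cone libraries at Msi1 and Msi2 and near 0 at Nova1. At Srrm4 rods lie between Nrl-/- photoreceptors and green cones, and at Ptbp2 the groups overlap.

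Upstream of Srrm3, the element chr5:135795099-135795298 was measured at 36.9 and 41.2 CPM in the rod libraries, 9.93 and 11.1 in Nrl-/- photoreceptors and 3.11 and 13.5 in double-sorted green cones. It lies 22.9 kb before the start site, is closer to the start site of Mdh2, and was 3.71-fold higher in rods than in Nrl-/- photoreceptors (log2 fold change, rods over cones, 2.03, SE 0.38, adjusted p = 0.022 with edgeR, and 0.11 and 0.14 without rod libraries 1 and 2). The direction matched that of Srrm3 RNA, which was higher in rods. None of the other 15 elements near Srrm3 was called, and none lay at its promoter. Of all elements, 3.98% were called higher in rods and 18.1% higher in cones.

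The neighbourhoods of Ptbp1, Ptbp2 and Nova2 held no element called between rods and cones by edgeR or DESeq2. Over all elements, edgeR called 3.98% higher in rods and 18.1% higher in cones. At an unadjusted p under 0.05, 1 Ptbp1 element, 1 Nova2 element and no Ptbp2 element were higher in rods, and none was higher in cones. All 9 elements near Ptbp1 lay over 10 kb away, and the most open, chr10:79908557-79908756 beside Med16, had 58.9 and 59.9 CPM in the rod libraries, 32.3 and 27.2 in Nrl-/- photoreceptors and 16.3 and 43.1 in green cones (log2 fold change 1.01, SE 0.29, edgeR adjusted p = 0.55). The Ptbp2 promoter, chr3:119783236-119783435, was measured at 39.4 and 32.9 CPM in the rod libraries, 23.6 and 41.3 in Nrl-/- photoreceptors and 22.5 and 42.2 in green cones. The groups overlapped there, as they did in Ptbp2 RNA. Near Nova2, the most open element, chr7:18991038-18991237 beside Mypop, stood at 57.7 and 47.3 CPM in rods and below that in all cone libraries (3.89 to 31.0 CPM), without a call (adjusted p = 0.26 with edgeR).

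With Nrl-/- photoreceptors alone as the cone group, the genotypes matched those of the RNA comparison. Of 110 elements tested, 9 were called higher in rods (6.38% of all elements) and 18 higher in Nrl-/- photoreceptors (21.0%). Against a difference of 0 the counts were 38 (27.5%) and 30 (33.5%). All 5 elements higher in rods in the collapsed comparison were among the 9, and 14 of the 18 higher in cones were called here too, which is a description only, since the comparisons share their rod and Nrl-/- libraries. Without Nrl-/- library 2, 11 elements in place of 18 were called higher in Nrl-/- photoreceptors. All 4 calls gained for rods lay in Msi2. Of the 4 gained for Nrl-/- photoreceptors, those near Msi1 and at the Rbfox2 promoter are given above. Another, chr5:116636435-116636634 outside Srrm4, had 0.417 and 2.45 CPM in rods against 4.97 and 7.72 CPM (adjusted p = 0.043 with edgeR, 0.33 without rod library 1 and 0.39 without Nrl-/- library 2). The call at Nova2, chr7:18958053-18958252 in a coding exon, rested on 1.04 and 0.753 CPM in rods against 4.97 and 4.77 CPM (log2 fold change −2.42, adjusted p = 0.025 with edgeR, and 0.18 without Nrl-/- library 1, 0.23 without Nrl-/- library 2 and 0.12 without rod library 2).

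Between double-sorted green cones and Nrl-/- photoreceptors, 91 elements were tested and none was called in either direction by edgeR or DESeq2, where 0.0374% of all elements were called higher in green cones and 0.00234% higher in Nrl-/- photoreceptors. At an unadjusted p under 0.05, 5 were higher in green cones and 2 in Nrl-/- photoreceptors. Against a difference of 0, 2 elements were called higher in green cones (1.99% of all elements) and none in Nrl-/- photoreceptors (1.06%): the Nova1 element described above, and chr16:6018680-6018879 in Rbfox1, at 15.2 CPM in green cones and 1.90 CPM in Nrl-/- photoreceptors on average (adjusted p = 0.070 with edgeR). A missing call does not show that the cone types were alike. With 1 green cone library left, which was assumed to vary like the Nrl-/- libraries, the test against 1 called 2 elements higher in green cones and 9 higher in Nrl-/- photoreceptors without library 4, and 1 and 1 without library 3.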

How the data were processed

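The 14 deposited libraries were grouped by their labels. Per the labels and the study's methods, the authors aligned ATAC-seq reads to GRCm38 (mm10) with Bowtie2 2.2.3, kept short, non-duplicate inserts (SAMtools 1.3, Picard 1.121), called peaks per cell type with MACS2 2.1.0 and counted reads in merged elements of 200 bp with bedtools 2.24.0. They aligned RNA-seq reads with STAR 2.4.2a and counted them per gene with HTSeq 0.6.1p1. Both deposited tables hold raw counts without normalization. Unassigned reads were left out (41.3% to 49.2% of a library), and the deposited peak lists were not used.

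Genes were matched by symbol. Elements were assigned by their midpoint to RefSeq gene spans of GRCm38.p6, extended by 50 kb. Counts were scaled by TMM, filtered with filterByExpr and fitted with the quasi-likelihood model of edgeR 4.0.16 on each whole table, and tested with glmTreat for a log2 fold change over 1, with Benjamini-Hochberg adjustment (adjusted p under 0.05 for RNA-seq, under 0.1 for ATAC-seq). The fits were tested on simulated data. Unadjusted p-values come from glmTreat too, against a log2 fold change of 1. Levels are CPM on TMM-scaled library sizes. Intervals are exact at 95%, and they and the limit of 3 counts per library cover counting error only. Permutation of labels was not used, since 3 against 3 cannot go below p = 0.1 and 2 against 2 cannot go below 0.333 (exact, two-sided).

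The alternatives were DESeq2 1.42.0 with the same thresholds, a test against 0, other size factors, no filter, each replicate left out, a replicate block, other green cone libraries, and other rules for assigning elements. The alternative with curated transcripts alone was chosen after seeing the data. The 10 genes, the gene lists and the markers were chosen with earlier results of these data known. Named are all 10 genes, up to 4 called genes per list with the largest fold change, most promoter elements, the called element of lowest adjusted p (rods against cones, per direction), and the most open element of some genes. The other called elements were added after their values were seen.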

Additional observations from a re-analysis of the deposited data

Results flagged for a closer look

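At the promoter element of Srrm4, chr5:116591793-116591992, the 2 kinds of cones lay on opposite sides of the rods, without a call. Both double-sorted green cone libraries (28.0 and 41.3 CPM) lay below both rod libraries (54.8 and 53.5 CPM), and both Nrl-/- libraries (69.5 and 69.0 CPM) lay above them, so that the mean of green cones minus that of Nrl-/- photoreceptors was −34.6 CPM. The contrast of these gaps was not tested as such. Between green cones and Nrl-/- photoreceptors, edgeR gave a log2 fold change of −1.0 (adjusted p = 1.0 against 1 and 0.15 against 0), so neither test called it. Between rods and Nrl-/- photoreceptors the log2 fold change was −0.37, not called against 1 (edgeR adjusted p = 0.019 against 0). Single-sorted green cones, at 41.5 and 38.8 CPM, lay below the rods as well.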

How the results depend on the processing

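No called gene or element of the 10 changed sign in any alternative fit that gave it a value. For RNA, 1 member was called higher in rods, but 0 with DESeq2, 3 against a difference of 0, and 0 to 1 without single replicates. For elements called higher in rods than in cones, the count of 5 became 1 with DESeq2, 29 against a difference of 0, 11 with double-sorted green cones alone as cones, 2 with the single-sorted libraries instead, 0 when elements were assigned to the nearest start site, and 1 to 7 without single replicates, while the count of 18 in cones became 9 to 18. For elements higher in rods than in Nrl-/- photoreceptors, the count of 9 became 3 with DESeq2, 38 against a difference of 0 and 1 by nearest start site. The count of 18 in the other direction became 30 against 0 and 11 to 17 without single replicates. Between green cones and Nrl-/- photoreceptors, the count of 0 higher in green cones became 2 against 0, 2 with single-sorted green cones and 0 to 2 without single replicates, and the count of 0 in Nrl-/- photoreceptors became 0 to 9. The causes were not tested. Same-numbered RNA-seq libraries deviated together with r = 0.19, 0.09 and −0.01, and those of unlike number with r from −0.23 to 0.18. For ATAC-seq r was 0.03, and with 2 libraries per group only its sign can differ between pairs. No pairing by number was seen, which does not exclude it. With a replicate block, 1 and 2 members were called in RNA (Nova2 was lost, adjusted p = 0.064 with edgeR) and 9 and 17 elements between rods and Nrl-/- photoreceptors. A limit of 3 counts was 0.565 to 0.625 CPM in the rod ATAC-seq libraries and 2.33 to 2.69 CPM in double-sorted green cones, so lower levels could not be told from 0.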

Other observations

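Genes whose transcripts carry exons or microexons of photoreceptors, and the host and microRNA genes of miR-124, a neuronal microRNA known to repress Ptbp1, were measured in the same libraries. Of 16 such exon hosts, 15 were tested. Called higher in rods, as were 6.88% of all genes, were Cnga1, a subunit of the rod cyclic nucleotide-gated channel (2411 ± 349.6 CPM in rods against 4.09 ± 1.13, SD, n = 3, log2 fold change 9.18, SE 0.25, adjusted p = 9.1e-11 with edgeR), and Slc24a1, the rod sodium, calcium and potassium exchanger (2221 ± 446 against 15.5 ± 2.77, log2 fold change 7.13, SE 0.22, adjusted p = 2.6e-10 with edgeR). Against a log2 fold change of 1, none was higher in Nrl-/- photoreceptors, where 13.3% of all genes were called. This held with DESeq2 and at an unadjusted p under 0.05 with edgeR. Against a difference of 0, 9 were called higher in rods and 4 in Nrl-/- photoreceptors, against 29.5% and 31.4% of all genes. Gene counts do not show whether the exons themselves were used.

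Of 6 names for host and microRNA genes of miR-124, 4 were in the table and 2 were tested. Among the 4, only Mir124a-1hg names a host transcript, and the others name genes of the microRNA itself. Mir124a-2, which is not a host transcript, was called higher in rods, as were 6.88% of all genes. It stood at 7.72 ± 1.48 CPM against 0.372 ± 0.151 CPM (log2 fold change 4.33, SE 0.36, adjusted p = 3.5e-06 with edgeR). Mir124a-1hg, the most abundant of the 4, was measured at 1819, 1743 and 2050 CPM in the rod libraries and at 1035, 794 and 589 CPM in those of Nrl-/- photoreceptors, without overlap (log2 fold change 1.19, SE 0.19, edgeR adjusted p = 0.22 against 1 and 0.00017 against 0). Mature microRNAs were not measured.

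None of the 9 core splicing factors linked to retinitis pigmentosa was called in either direction by edgeR or DESeq2, and none had an unadjusted p under 0.05. Over all genes, edgeR called 6.88% higher in rods and 13.3% higher in Nrl-/- photoreceptors. The median log2 fold change of the 9 was 0.18. Against a difference of 0, 2 of the 9, Prpf3 and Prpf4, were called higher in rods (109 and 91.3 CPM against 67.2 and 58.2 CPM on average). Of all genes, 29.5% were called so.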
